A study of Mus musculus with 15 samples.

Results

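The 10 genes described here build new myofibrils or remodel stressed ones: Xirp1, Xirp2, Flnc, Nrap, Csrp3, Ankrd1, Ankrd2, Klhl40, Klhl41 and Smyd1. They were taken by gene name from 56748 identifiers, and each matched 1 identifier. RNA sequencing followed the tibialis anterior (TA) muscle of male C57BL/6 mice, 8 weeks old at the start, after 50 µL of cardiotoxin (CTX, a venom toxin that lyses muscle fibers) at 0.1 mg/mL in PBS with 0.2% Meloxicam. Libraries came from the Proliferation Stage (4 days after injection, n = 4), the Differentiation Stage (7 days, n = 4), the Maturation Stage (14 days, n = 4) and the Uninjected group (n = 3). Injected mice received the toxin in 1 limb only, and by the study's methods the Uninjected controls were mice given no toxin. Mice of all groups drank deuterated water as a protein label. The study's methods take the RNA from single muscle fibers with their attached cells, and the labels also call the material bulk tissue. The labels number the subjects within each group, and each library was treated as 1 animal.

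A myofibril forms when actin filaments are anchored on early Z-bodies, which then mature into Z-discs as muscle myosin is folded and added. Filamin C crosslinks actin at the Z-disc and, together with the Xin proteins Xirp1 and Xirp2, gathers at sites of fiber damage. Nrap is a scaffold of premyofibrils, and Csrp3 (muscle LIM protein) and the ankyrin repeat proteins Ankrd1 and Ankrd2 are linked to the Z-disc and to titin's spring region and respond to load. Klhl40 and Klhl41 are Kelch adaptors whose loss causes nemaline myopathy in humans, and Smyd1 is a lysine methyltransferase that assists myosin during thick filament assembly.

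Fragments falling in genes, recovered from the steps of the values, numbered about 1471340 to 7209330 per library. Values are FPKM, fragments per kilobase of gene divided by a library size, and this size was not simply the sum of fragments in genes: the denominator was 1.09 to 1.91 times that sum at the Proliferation Stage, 1.01 to 1.39 times at the Differentiation Stage, 0.884 to 0.953 times at the Maturation Stage and 0.859 to 0.913 times in the Uninjected group. All 12 adult fiber markers were detected, but Tnnc2 only at means of 0.64 FPKM at the Proliferation Stage and 0.59 FPKM in the Uninjected group. The summed FPKM of the 12 ran from 6636 to 73258 at the Proliferation Stage, from 45857 to 101183 at the Differentiation Stage, from 103676 to 127555 at the Maturation Stage and from 73577 to 121331 in the Uninjected group. By gene, 0 of the 12 were called lower at the Proliferation Stage and 3 at the Differentiation Stage, beside 9.05% and 12.5% of all genes. Summed over 12 macrophage and leukocyte markers, the range was 1373 to 3313 FPKM at the Proliferation Stage, 85.4 to 1221 FPKM at the Differentiation Stage, 21.8 to 66.3 FPKM at the Maturation Stage and 5.41 to 18.1 FPKM for the Uninjected libraries. Proliferation replicate 1 stood apart, with the lowest adult fiber sum and the highest macrophage sum, and it held the lowest value of its stage for all 10 genes. For the 10 genes, Proliferation differences that moved by over 1.5 times without it are given both ways. Calls of single genes outside the 10 were not checked without it or under the other alternatives.

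Promoter sequences are shown for 2 related gene pairs whose balance within a library is compared here, Ankrd1 with Ankrd2 and Klhl40 with Klhl41. Each window holds 250 bases before and 50 bases after the start of the gene in RefSeq (GRCm38.p6), printed on the gene's own strand. Distances of motifs are counted from that RefSeq start. Gene positions given below follow GENCODE M21, where the Ankrd1 gene begins further upstream, so the whole Ankrd1 window lies inside it. Capitals mark the MCAT motif CATTCC (read as GGAATG where it lies on the other strand), the E-box CAGCTG and the MEF2 box.
Ankrd1 promoter, chr19:36119795-36120094, minus strand: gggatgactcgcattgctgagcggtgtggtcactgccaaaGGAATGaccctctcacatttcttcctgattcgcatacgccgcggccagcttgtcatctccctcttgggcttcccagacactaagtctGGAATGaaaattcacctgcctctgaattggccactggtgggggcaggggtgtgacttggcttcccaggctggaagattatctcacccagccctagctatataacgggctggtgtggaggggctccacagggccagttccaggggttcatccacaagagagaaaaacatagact
Ankrd2 promoter, chr19:42035777-42036076, plus strand: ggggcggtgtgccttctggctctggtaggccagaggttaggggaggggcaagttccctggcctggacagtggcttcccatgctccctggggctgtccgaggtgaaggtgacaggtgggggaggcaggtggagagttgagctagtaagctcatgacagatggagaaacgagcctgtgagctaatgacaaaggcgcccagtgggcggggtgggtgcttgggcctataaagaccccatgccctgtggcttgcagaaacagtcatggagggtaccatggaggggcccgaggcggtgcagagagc
Klhl40 promoter, chr9:121777357-121777656, plus strand: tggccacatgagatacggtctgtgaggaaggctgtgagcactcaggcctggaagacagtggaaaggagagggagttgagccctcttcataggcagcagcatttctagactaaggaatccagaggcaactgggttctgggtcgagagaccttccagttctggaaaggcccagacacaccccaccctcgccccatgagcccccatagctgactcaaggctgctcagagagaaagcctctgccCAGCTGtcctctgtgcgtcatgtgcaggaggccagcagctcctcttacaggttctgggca
Klhl41 promoter, chr2:69669870-69670169, plus strand: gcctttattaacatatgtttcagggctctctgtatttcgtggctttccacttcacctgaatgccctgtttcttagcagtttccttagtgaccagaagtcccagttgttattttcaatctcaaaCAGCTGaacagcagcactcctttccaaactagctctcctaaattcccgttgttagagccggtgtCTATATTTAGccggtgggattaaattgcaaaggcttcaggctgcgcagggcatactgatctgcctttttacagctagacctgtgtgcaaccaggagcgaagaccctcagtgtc
The Ankrd1 window held 2 MCAT matches, which begin 210 and 123 bases before the start. An MCAT match was found in 14.7% of all 32851 promoter windows. The Klhl40 and Klhl41 windows held 1 CAGCTG each (16.3% of all windows), and the Klhl41 window also held 1 MEF2 box (3.19% of all windows). In the Ankrd2 window, none of these motifs or the CArG box was matched. Both strands were searched, CAGCTG is a form of the general E-box CANNTG (72.3% of all windows), and a match is a description of letters and not a binding site. Among the 9 genes with a window, 2 held an MCAT match, 3 a CAGCTG, 2 a MEF2 box and 0 a CArG box (1.63% of all windows).

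The ankyrin repeat genes separated most clearly. Ankrd1, which encodes a titin-binding protein induced by stretch and injury, was far higher at days 4 and 7 than in Uninjected muscle and was lower again at day 14. The gene lies at chr19:36111961-36120099 (minus strand, GRCm38). Ankrd1 had 18.8, 23.1, 40.3 and 36.7 FPKM at the Proliferation Stage, 31.8, 33.4, 40.3 and 43.5 FPKM at the Differentiation Stage, 9.24, 2.26, 15.0 and 6.19 FPKM at the Maturation Stage and 2.71, 0.351 and 2.04 FPKM in the Uninjected libraries. All Proliferation and Differentiation libraries lay above all Maturation and Uninjected libraries, and the Maturation range overlapped the Uninjected range by 1 library. The Uninjected values rest on 19, 2 and 23 fragments, so the size of the fold carries a large counting error. On the log2(FPKM + 0.5) scale, which understates the change of low genes, Ankrd1 was upregulated by 3.92 ± 0.47 at the Proliferation Stage (SE, limma adjusted p = 0.00102) and by 4.30 ± 0.41 at the Differentiation Stage (adjusted p = 0.000746). The Proliferation call was lost under an unpaired test on FPKM without a log scale (adjusted p = 0.0648, over 21 alternatives 9.52e-05 to 0.0648), and the Differentiation call was kept under all 21 (0.000188 to 0.0116). These differences correspond to mean FPKM 17.5-fold and 21.9-fold above the Uninjected mean. A bulk measurement cannot tell a change in the number of cells of a type from a change in the RNA that each cell holds, for this or any other gene here. At the Maturation Stage Ankrd1 averaged 8.18 ± 5.39 FPKM against 1.70 ± 1.21 FPKM in the Uninjected group (SD, n = 4 and 3), a log2 difference of 1.93 ± 0.63 that did not pass (adjusted p = 0.262).

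Ankrd2, the related gene of slow and stretched fibers, showed no such pattern. Ankrd2 (chr19:42036000-42045110, plus strand) had 5.48, 45.4, 49.2 and 106 FPKM at the Proliferation Stage, 28.4, 16.1, 114 and 31.8 FPKM at the Differentiation Stage, 11.2, 57.9, 62.4 and 54.2 FPKM at the Maturation Stage and 83.1, 13.8 and 64.2 FPKM in the Uninjected libraries. Every stage overlapped the Uninjected range, and the highest library of a group held 5.57 to 19.3 times the lowest. Log2 differences from Uninjected were -0.30 ± 0.98, -0.23 ± 0.75 and -0.12 ± 0.75 at the 3 stages in order of time, with adjusted p of 0.834 or more and standard errors that leave changes of this size undetectable. Without Proliferation replicate 1 the Proliferation difference was 0.55, the other sign, and did not pass (adjusted p = 0.572, over 21 alternatives 0.461 to 0.998). Within a library, where the scaling cancels, Ankrd1 over Ankrd2 was 3.43, 0.509, 0.820 and 0.346 at the Proliferation Stage and 1.12, 2.08, 0.355 and 1.37 at the Differentiation Stage. The same ratio was 0.824, 0.0390, 0.241 and 0.114 at the Maturation Stage and 0.0326, 0.0254 and 0.0317 in the Uninjected libraries. All 12 libraries of injected muscle lay above the 3 Uninjected ones, with Maturation replicate 2 closest to them. The other member of the ankyrin repeat trio, Ankrd23, averaged 12.8 ± 5.2 FPKM at the Differentiation Stage against 44.2 ± 9.1 FPKM in the Uninjected group (SD, n = 4 and 3) and had a log2 difference of -1.81 ± 0.30 (adjusted p = 0.00444).

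**Figure D1:**
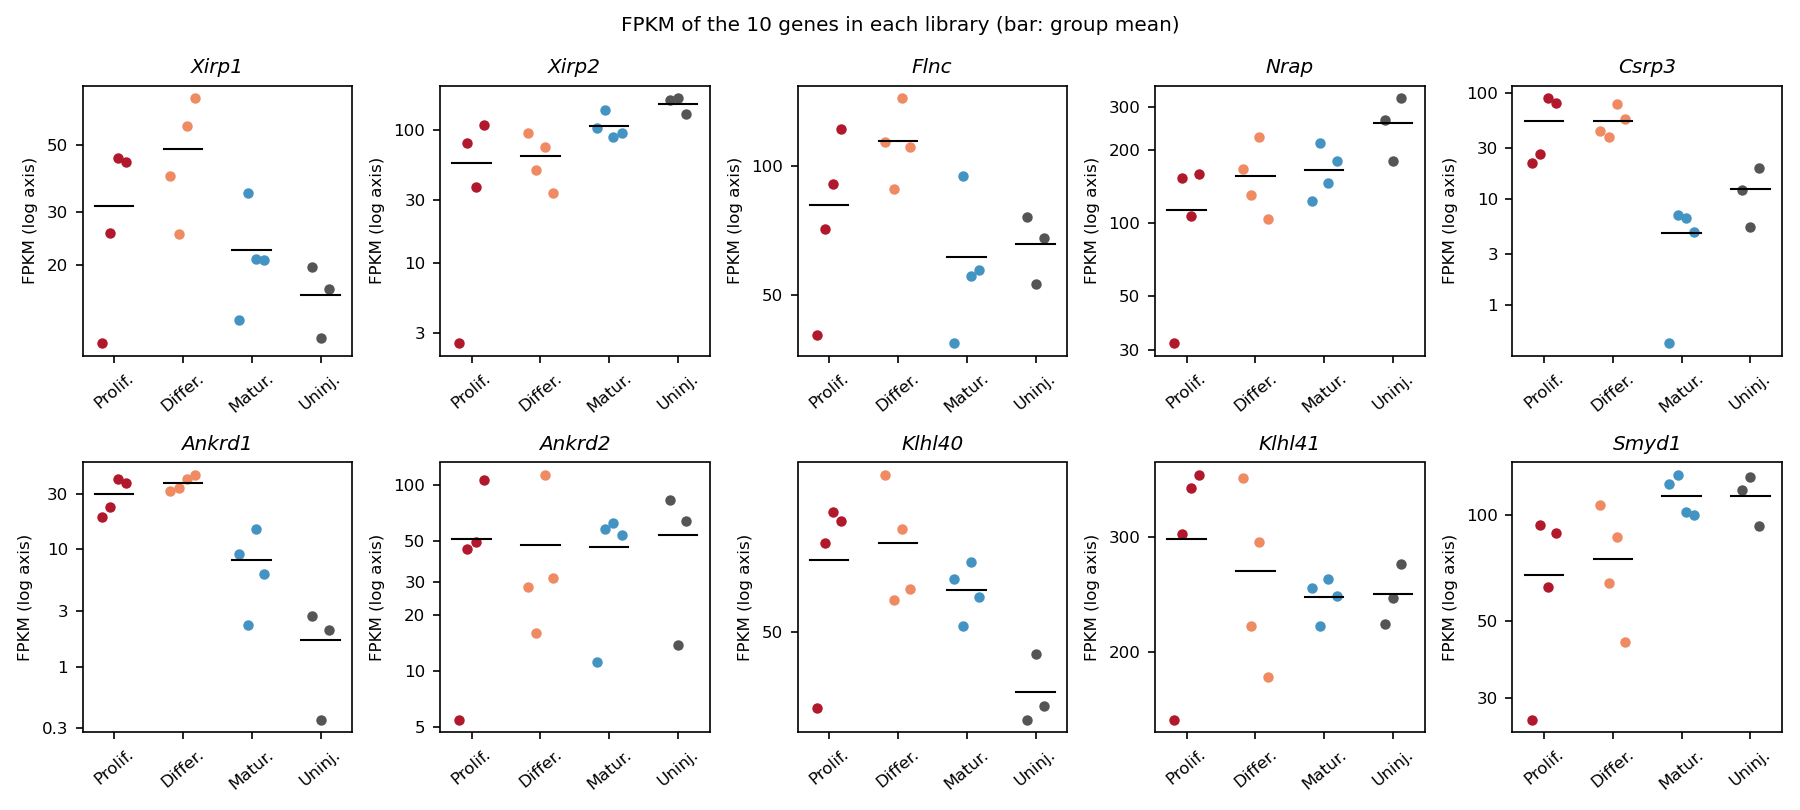
FPKM of each gene (vertical axis, log scale, its own range in each panel) in every library (points) of the Proliferation, Differentiation, Maturation and Uninjected groups, with the group mean as a bar. Ankrd1 and Csrp3 stand high in the first 2 groups, Ankrd2 overlaps throughout, and Proliferation replicate 1, the leftmost point of each panel, is the lowest of its stage for all 10 genes.

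Csrp3 shared the early rise with Ankrd1 and, like it, was lower at day 14 than at either earlier stage. Csrp3 (chr7:48830398-48848033, minus strand) encodes the muscle LIM protein, which in adult mice is mainly a protein of heart and slow fibers. It had 21.9, 26.7, 89.3 and 81.3 FPKM at the Proliferation Stage, 44.1, 38.4, 78.2 and 57.2 FPKM at the Differentiation Stage, 0.434, 7.05, 6.61 and 4.85 FPKM at the Maturation Stage and 12.2, 5.49 and 19.6 FPKM in the Uninjected libraries. The early libraries all lay above the Uninjected range, whereas 2 of the 4 Maturation libraries lay below it. Csrp3 was upregulated by 2.00 ± 0.61 at the Proliferation Stage (adjusted p = 0.0409) and by 2.20 ± 0.41 at the Differentiation Stage (adjusted p = 0.00637). The Differentiation call was lost under the unpaired test on FPKM (adjusted p = 0.0705, over 21 alternatives 0.00246 to 0.0705). The Proliferation call was fragile: it was lost under that unpaired test, without a filter on low values, and when Proliferation replicate 3 or 4 or any of the 3 Uninjected libraries was left out (log2 1.53 to 2.40, adjusted p 0.0556 to 0.138), and over all 21 alternatives the adjusted p ran from 0.00549 to 0.200.

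At the Maturation Stage Csrp3 averaged 4.74 ± 3.02 FPKM against 12.4 ± 7.1 FPKM in the Uninjected group (SD, n = 4 and 3), a log2 difference of -1.51 ± 0.74 that did not pass (adjusted p = 0.426) and was -0.80 without Maturation replicate 1 (adjusted p = 0.506, over 21 alternatives 0.298 to 0.681). Maturation replicate 1 rests on 2 fragments of Csrp3 and the other Maturation libraries on 26 to 66. Between stages the difference was clear. Csrp3 fell at the Maturation Stage, with a log2 difference of -3.71 ± 0.64 from the Differentiation Stage (adjusted p = 0.00469) and of -3.51 ± 0.64 from the Proliferation Stage (adjusted p = 0.00140). Without Maturation replicate 1 these differences were -3.01 and -2.80 and both still passed (adjusted p = 0.00834 and 0.00235, over all 20 alternatives each 0.00261 to 0.0164 and 0.000311 to 0.00683). Ankrd1 also fell at the Maturation Stage, with -2.36 ± 0.48 from the Differentiation Stage (adjusted p = 0.00953) and -1.99 ± 0.48 from the Proliferation Stage (adjusted p = 0.00751). For both genes all 4 Maturation libraries lay below all 4 libraries of either earlier stage (exact permutation p = 0.0286, two-sided, the smallest that 70 splits allow). Groups separated in this direction for 13.5% of all genes against the Differentiation Stage and for 19.4% against the Proliferation Stage.

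The relatives Csrp1 and Csrp2, which are expressed more widely than Csrp3, also rose early. Csrp1 rose at the Differentiation Stage (37.8 ± 8.3 FPKM against 14.8 ± 3.0 FPKM in the Uninjected group, SD, n = 4 and 3, log2 1.31, adjusted p = 0.00496), and Csrp2 rose at the Proliferation Stage (12.5 ± 8.6 FPKM against 0.65 ± 0.42 FPKM in the Uninjected group, log2 3.26, adjusted p = 0.00550) and at the Differentiation Stage (log2 2.85, adjusted p = 0.0211). Csrp3 over the sum of both was 0.268 to 2.31 at the Proliferation Stage, 0.678 to 2.14 at the Differentiation Stage, 0.0241 to 0.314 at the Maturation Stage and 0.435 to 1.34 for the Uninjected libraries. The Maturation libraries thus lay below all others except Proliferation replicate 1, whose ratio of 0.268 fell inside their range.

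The Xin genes moved in opposite directions at day 7. Xirp1 (chr9:120013755-120023598, minus strand) encodes Xin, which binds filamin C and appears at lesions of damaged fibers. Xirp1 had 11.04, 25.5, 45.1 and 43.8 FPKM at the Proliferation Stage, 39.3, 25.4, 57.7 and 71.1 FPKM at the Differentiation Stage, 13.2, 34.5, 20.9 and 20.8 FPKM at the Maturation Stage and 19.7, 11.5 and 16.6 FPKM in the Uninjected libraries. Only the Differentiation libraries lay wholly above the Uninjected range. There Xirp1 was upregulated by 1.50 ± 0.35 on the log2 scale (adjusted p = 0.0156), a call lost without Uninjected replicate 2 (log2 1.29, adjusted p = 0.0626, over 21 alternatives 0.00436 to 0.133). The unpaired test on FPKM also lost this call. In the Proliferation Stage the difference of 0.79 ± 0.48 did not pass (adjusted p = 0.228), but without Proliferation replicate 1 it was 1.22 and passed (adjusted p = 0.0222, over 21 alternatives 0.0141 to 0.471).

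Xirp2, also called myomaxin, belongs to the mature Z-disc and the costamere. Xirp2 (chr2:67446002-67526614, plus strand) had 2.53, 79.1, 37.5 and 108 FPKM at the Proliferation Stage, 95.0, 49.9, 73.8 and 33.7 FPKM at the Differentiation Stage, 102, 139.6, 88.0 and 94.4 FPKM at the Maturation Stage and 166, 171 and 131 FPKM in the Uninjected libraries. Every Proliferation and Differentiation library lay below every Uninjected library, and only 1 Maturation library reached the Uninjected range. The difference passed at the Differentiation Stage (-1.39 ± 0.35, adjusted p = 0.0185) and not at the Proliferation Stage (-2.30 ± 1.10, adjusted p = 0.138) or the Maturation Stage (-0.57 ± 0.19, adjusted p = 0.264). The Differentiation call was lost without Uninjected replicate 1 or 2 (log2 -1.35 and -1.32, adjusted p = 0.0561 and 0.0647, over 21 alternatives 0.00434 to 0.245). A block for the replicate number and 1 fit of all 15 libraries also lost this call. Without Proliferation replicate 1, where Xirp2 was lowest, the Proliferation difference was -1.18 (adjusted p = 0.0614, over 21 alternatives 0.0491 to 0.256).

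Within a library Xirp1 over Xirp2 was 4.37, 0.322, 1.20 and 0.407 at the Proliferation Stage and 0.413, 0.508, 0.782 and 2.11 at the Differentiation Stage. It was 0.130, 0.247, 0.238 and 0.221 at the Maturation Stage and 0.119, 0.0673 and 0.127 in the Uninjected libraries. The Xin balance was above the Uninjected range in all 12 libraries of injected muscle, with Maturation replicate 1 closest to it.

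**Figure D2:**
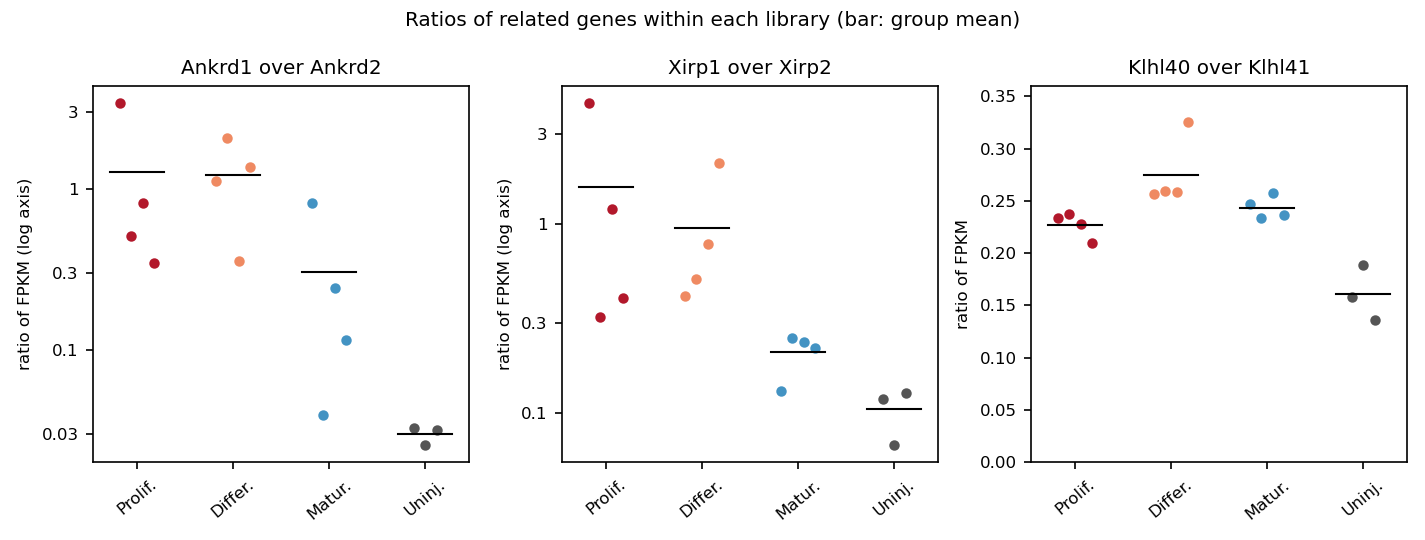
Ratio of FPKM within each library (vertical axis, log scale for the first 2 panels and linear from 0 for the last) for Ankrd1 over Ankrd2, Xirp1 over Xirp2 and Klhl40 over Klhl41, by group, with the group mean as a bar. In all 3 panels the 3 Uninjected points lie below all 12 points of injected muscle.

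Flnc, the filamin that Xirp1 and Xirp2 bind, followed Xirp1 at a smaller size. Flnc (chr6:29433256-29461883, plus strand) had 40.2, 71.3, 91.0 and 122 FPKM at the Proliferation Stage, 114, 88.3, 144 and 111 FPKM at the Differentiation Stage, 38.5, 94.6, 55.2 and 57.3 FPKM at the Maturation Stage and 76.2, 52.9 and 68.0 FPKM in the Uninjected libraries. Its Differentiation libraries all exceeded the Uninjected ones, and the other 2 stages overlapped them. The Proliferation difference was 0.21 with all libraries and 0.51 without Proliferation replicate 1, and neither passed (adjusted p = 0.705 and 0.215), though with FPKM rescaled to the same total (TPM) it did (adjusted p = 0.0316, over 21 alternatives 0.0316 to 0.973). Flnc was upregulated by 0.79 ± 0.23 at the Differentiation Stage (adjusted p = 0.0350), and the call was lost without Differentiation replicate 3 or 4 or Uninjected replicate 2 or 3 (log2 0.64 to 0.82, adjusted p 0.0667 to 0.131, over 21 alternatives 0.00265 to 0.131). The call was also lost without a filter on low values and with a block for the replicate number. The same held in 1 fit of all 15 libraries and under the unpaired test on FPKM. Flna, a filamin of many other cell types, rose at the same stage, to 19.3 ± 7.2 FPKM against 8.17 ± 0.68 FPKM in the Uninjected group (SD, n = 4 and 3, adjusted p = 0.0200).

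Of 22 other genes whose proteins bind filamin C or the Xin proteins, 5 rose and 0 fell among the 21 tested at the Differentiation Stage, beside 17% and 12.5% of all genes. They were the small heat shock genes Hspb1 (log2 1.63, adjusted p = 0.00553), Hspb7 (1.56, adjusted p = 0.0369) and Hspb8 (1.27, adjusted p = 0.0252) and the actin regulators Vasp (1.09, adjusted p = 0.00749) and Zyx (1.49, adjusted p = 0.0107). Hspb7, a chaperone that holds filamin C, averaged 294 ± 90 FPKM there against 111 ± 63 FPKM in the Uninjected group (SD, n = 4 and 3). In the Proliferation Stage 3 of 22 rose and 0 fell (Vasp, Zyx and the cadherin Cdh2), beside 20.1% and 9.05% of all genes, and at the Maturation Stage limma called 0 in either direction. The median log2 difference of the list was 0.12 at the Differentiation Stage, beside 0.06 over all genes tested. Bag3, the cochaperone that clears damaged filamin, differed by 0.12 ± 0.22 on the log2 scale at the Differentiation Stage (adjusted p = 0.721).

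Nrap, the premyofibril scaffold, had lower means than Uninjected at every stage, and none of these differences passed the test. Nrap (chr19:56320035-56390037, minus strand) had 31.8, 153, 107 and 159 FPKM at the Proliferation Stage, 167, 129.8, 225 and 104 FPKM at the Differentiation Stage, 123, 213, 147 and 181 FPKM at the Maturation Stage and 266, 179 and 327 FPKM in the Uninjected libraries. All Proliferation libraries lay below the Uninjected range, while 1 Differentiation and 2 Maturation libraries reached it. Log2 differences were -1.38 ± 0.58, -0.73 ± 0.33 and -0.62 ± 0.25 in order of time (adjusted p = 0.103, 0.121 and 0.337), and the Proliferation value was -0.86 without Proliferation replicate 1. Nrap shares 6.83% of its exon bases with 2 overlapping genes, and the library kit as described does not mark the strand.

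The Kelch genes differed from each other. Klhl40 (chr9:121777607-121783818, plus strand), whose product stabilizes the thin filament proteins nebulin and Lmod3, had 36.8, 71.9, 81.4 and 78.5 FPKM at the Proliferation Stage and 94.8, 57.0, 76.2 and 59.6 FPKM at the Differentiation Stage. In the Maturation Stage it had 62.1, 51.3, 66.6 and 57.8 FPKM, against 35.03, 45.7 and 37.1 FPKM in the Uninjected libraries. Apart from Proliferation replicate 1, every library of injected muscle exceeded every Uninjected one, including all 4 at day 14. Klhl40 was upregulated by 0.84 ± 0.23 at the Differentiation Stage (adjusted p = 0.0265), and the call was lost without Differentiation replicate 3 or Uninjected replicate 1 or 3 (log2 0.77 to 0.81, adjusted p 0.0649 to 0.0871, over 21 alternatives 0.000798 to 0.107). A block for the replicate number and the unpaired test on FPKM also lost this call. The Proliferation difference of 0.71 ± 0.33 did not pass (adjusted p = 0.131) and passed without Proliferation replicate 1 (0.97, adjusted p = 0.0151, over 21 alternatives 0.00321 to 0.289). At the Maturation Stage Klhl40 averaged 59.4 ± 6.5 FPKM against 39.3 ± 5.7 FPKM in the Uninjected group (SD, n = 4 and 3), a log2 difference of 0.59 ± 0.15 that did not pass (adjusted p = 0.179). The predicted gene Gm47108 covers 21.6% of the exon bases of Klhl40 and was listed at 0 in 14 of the 15 libraries.

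Klhl41, which protects nebulin and the premyofibril from aggregation and targets Nrap for turnover, had the highest mean FPKM of the 10 genes at all 3 stages and the second highest, after Nrap, in the Uninjected group. Klhl41 (chr2:69670120-69684230, plus strand) had 158, 303, 357 and 373 FPKM at the Proliferation Stage, 369, 219, 295 and 183 FPKM at the Differentiation Stage, 251, 219.7, 259 and 244 FPKM at the Maturation Stage and 221, 242 and 273 FPKM in the Uninjected libraries. All stages overlapped the Uninjected range. Log2 differences were 0.21 ± 0.41, 0.07 ± 0.28 and -0.01 ± 0.14 in order of time, with adjusted p of 0.714 or more. Without Proliferation replicate 1 the Proliferation difference was 0.49 (adjusted p = 0.213). The call depended on the scaling. Under TPM Klhl41 rose at the Proliferation Stage (log2 1.11, adjusted p = 0.0230, over 21 alternatives 0.0230 to 0.921) and at the Differentiation Stage (log2 0.65, adjusted p = 0.0190, over 21 alternatives 0.0190 to 0.997), and at the Differentiation Stage it also rose when scaled to the recovered fragments and under voom, a limma fit to those fragments. Klhl40 over Klhl41 within a library was 0.234, 0.237, 0.228 and 0.210 at the Proliferation Stage and 0.257, 0.260, 0.258 and 0.325 at the Differentiation Stage. It was 0.247, 0.233, 0.257 and 0.237 at the Maturation Stage and 0.158, 0.189 and 0.136 in the Uninjected libraries. This ratio varied little inside a group, kept Proliferation replicate 1 among its own stage, and was above the Uninjected range in all 12 libraries of injected muscle.

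Nebulin, a target of both Kelch proteins, was lower at both early stages. Neb, the nebulin gene, averaged 69.1 ± 43.8 FPKM at the Proliferation Stage and 103 ± 36 FPKM at the Differentiation Stage against 220.4 ± 21.1 FPKM in the Uninjected group (SD, n = 4, 4 and 3). It fell at both (log2 -1.97 ± 0.61 and -1.17 ± 0.31, adjusted p = 0.0423 and 0.0243), and whether these calls hold under the alternatives was not checked. Lmod3, which nucleates thin filaments, differed by 0.71 ± 0.36 and 0.80 ± 0.29 at those stages and did not pass (adjusted p = 0.157 and 0.0652). Cul3, the ligase scaffold that Kelch adaptors join, fell at the Proliferation Stage (log2 -1.43, adjusted p = 0.0176) and at the Differentiation Stage (log2 -1.36, adjusted p = 0.00360).

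Smyd1 had its highest values in uninjured and maturing muscle. Smyd1 (chr6:71213940-71322233, minus strand) had 26.1, 93.3, 62.4 and 88.7 FPKM at the Proliferation Stage, 106, 63.8, 86.6 and 43.4 FPKM at the Differentiation Stage, 122, 130.0, 102 and 99.6 FPKM at the Maturation Stage and 118, 128 and 92.9 FPKM in the Uninjected libraries. Relative to Uninjected it differed by -0.88 ± 0.46, -0.65 ± 0.31 and 0.01 ± 0.17 in order of time and never passed (adjusted p = 0.170, 0.150 and 0.989; without Proliferation replicate 1 the Proliferation value was -0.48, adjusted p = 0.217), except at the Differentiation Stage without Differentiation replicate 1 (log2 -0.84, adjusted p = 0.0481, over 21 alternatives 0.0481 to 0.808). Every Maturation library exceeded every Proliferation library (exact permutation p = 0.0286, two-sided, as for 11.4% of all genes), with a log2 difference of 0.89 ± 0.36 that limma did not call (adjusted p = 0.0721). It passed without Proliferation replicate 2 or 4 (log2 1.09 and 1.07, adjusted p = 0.0307 and 0.0489, over 20 alternatives 0.0307 to 0.826). Its partner in myosin folding Unc45b fell at the Differentiation Stage (log2 -0.82 ± 0.23, 39.4 ± 9.8 FPKM against 69.0 ± 7.4 FPKM in the Uninjected group, SD, n = 4 and 3, adjusted p = 0.0264), while the myosin chaperone Hsp90aa1 rose in both early stages (log2 1.66 and 0.93, adjusted p = 0.00955 and 0.0207).

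**Figure D3:**
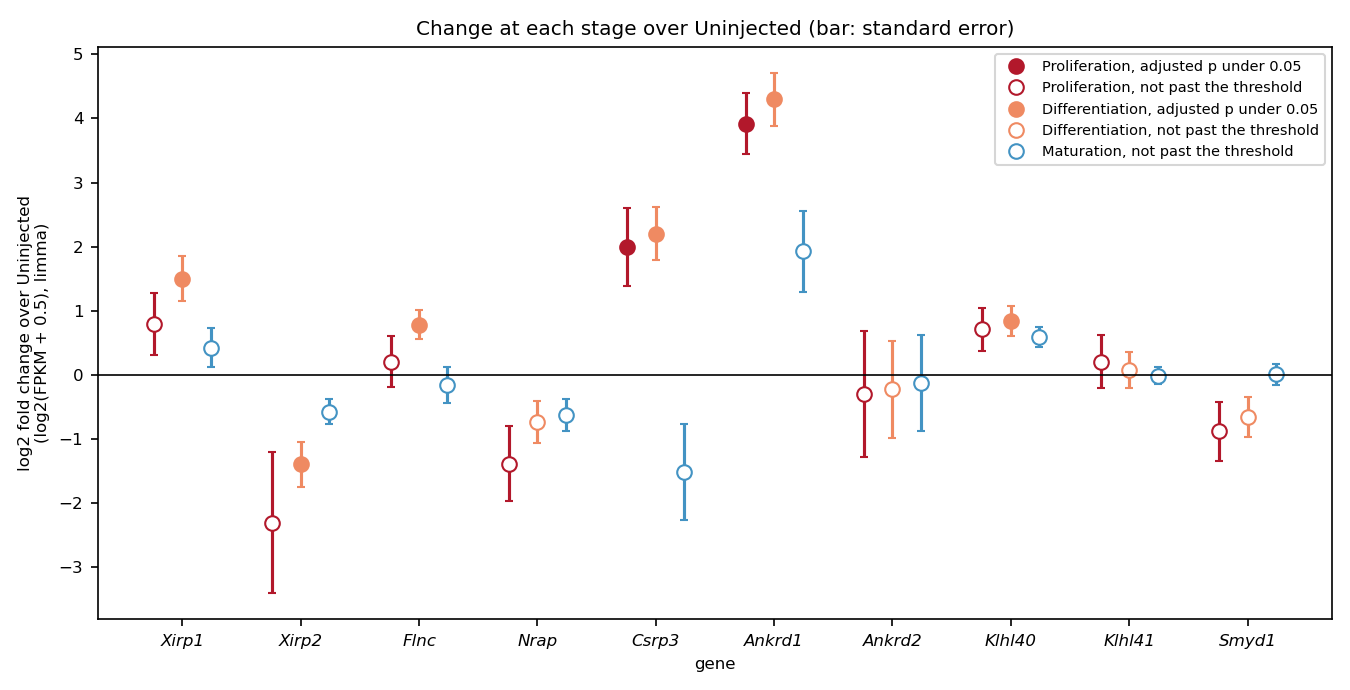
Log2 fold change over Uninjected from limma on log2(FPKM + 0.5) (vertical axis) for each gene (horizontal axis) at the 3 stages, with standard errors as bars and filled points for an adjusted p under 0.05. Filled points stand at Ankrd1 and Csrp3 for the Proliferation and Differentiation Stages and at Xirp1, Xirp2, Flnc and Klhl40 for the Differentiation Stage, and all Maturation points are open.

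Counted over the 10 genes, 2 rose at the Proliferation Stage (Ankrd1 and Csrp3), where 20.1% of all 13166 genes tested rose, and 0 fell, where 9.05% of all genes fell. The lower count of 0 compares with 1 gene at an unadjusted limma p under 0.05 (Nrap), 2 genes whose libraries lay wholly below the Uninjected range (Xirp2 and Nrap, beside 17.1% of all genes), 0 under voom on the recovered fragments and 2 in 1 fit of all 15 libraries (Xirp2 and Nrap). In the Differentiation Stage 5 rose (Ankrd1, Csrp3, Xirp1, Klhl40 and Flnc) and 1 fell (Xirp2), beside 17% and 12.5% of all 12983 genes. Libraries lay wholly above the Uninjected range for 2 genes at the Proliferation Stage and 5 at the Differentiation Stage, and wholly below it for 1 at the Differentiation Stage, beside 25.6%, 21.5% and 17.4% of all genes. The exact permutation p of the 6 called genes was 0.0571, two-sided, which is the smallest that 4 against 3 libraries allow, so that test could not reach 0.05. The median log2 difference of the 10 genes was 0.21 at the Proliferation Stage and 0.43 at the Differentiation Stage, beside 0.05 and 0.06 over all genes. Without Proliferation replicate 1, 4 of the 10 rose at the Proliferation Stage, beside 2237 of all 12659 genes tested.

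At the Maturation Stage limma called 0 of the 10 genes higher and 0 lower, beside 0.0245% and 0% of all 12253 genes. At an unadjusted p under 0.05 there were 2 higher (Ankrd1 and Klhl40) and 2 lower (Xirp2 and Nrap), and voom on the recovered fragments also called 0. Klhl40 was the single gene whose libraries did not overlap, beside 6.7% of all genes that were wholly above the Uninjected range. From the Proliferation to the Differentiation Stage 0 rose and 0 fell (1.13% and 1.93% of all 14576 genes), with 0 at an unadjusted p under 0.05 and 0 under voom. In the Maturation Stage 2 genes, Csrp3 and Ankrd1, were lower than at the Differentiation Stage (9.54% of all genes were lower) and the same 2 were lower than at the Proliferation Stage (20.5%). None rose in either comparison (4.71% and 13.3% of all genes), with 0 and 2 at an unadjusted p under 0.05, the 2 being Xirp2 and Smyd1, and 0 in both under voom.

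The scaling of the libraries bears on these counts. Rescaled to fragments in genes, the median gene was 0.64 higher on the log2 scale at the Proliferation Stage and 0.46 higher at the Differentiation Stage than in the Uninjected group, and the split of all genes at the Proliferation Stage was 4370 higher and 253 lower, against 2649 and 1192 as deposited. Under that scaling 4 of the 10 genes rose at the Proliferation Stage (Xirp1, Csrp3, Ankrd1 and Klhl40). The within-library ratios above do not depend on it.

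Library makeup moved with several of the 10 genes. In the Differentiation Stage the macrophage and leukocyte sum was 85.4, 854, 335 and 1221 FPKM in replicates 1 to 4, and the order of the libraries by Xirp2, by Smyd1 and by Klhl41 was exactly the reverse. In the Proliferation Stage the sum was 3313, 1373, 2105 and 1396 FPKM. Smyd1 was again in reverse order there, and Xirp2 and Nrap were but for replicates 2 and 4, whose sums lie close together. Klhl41 was not in reverse order there (158, 303, 357 and 373 FPKM). Nrap was not in reverse order at the Differentiation Stage, and the rest of the 10 genes were in neither stage. The share of all genes in reverse order was not computed. In both stages the FPKM denominator over the fragments in genes ranked the libraries as the macrophage and leukocyte sum did. That quotient was 1.91, 1.09, 1.56 and 1.28 in Proliferation replicates 1 to 4. In Differentiation replicates 1 to 4 it was 1.009, 1.391, 1.182 and 1.393. At the Maturation Stage the sum of 10 new fiber markers was 3178, 915, 2501 and 1350 FPKM, and the 2 libraries with the lower sums also held the 2 lower Ankrd1 values. The summed new fiber markers were 2222 to 5392 FPKM at the Proliferation Stage, 2554 to 2883 FPKM at the Differentiation Stage, 915 to 3178 FPKM at the Maturation Stage and 114 to 419 FPKM for the Uninjected libraries. Actc1 weighs heavily in this sum, with a mean of 2198 FPKM at the Proliferation Stage. By gene, 6 of the 10 were lower at the Differentiation than at the Proliferation Stage (median log2 -2.44). At the Maturation Stage 9 were lower than at the Proliferation Stage (median log2 -5.26). Of all genes, 1.93% and 20.5% were lower in these 2 comparisons. The macrophage marker Itgam and the fusion genes Mymk and Mymx were at 0 in every Uninjected library. Over 5 markers of the myotendinous junction the sum was 49.7 to 102 FPKM at the Proliferation Stage, 18.6 to 377 FPKM at the Differentiation Stage, 58.5 to 121 FPKM at the Maturation Stage and 25.3 to 56.9 FPKM for the Uninjected libraries. Over 10 immediate early and heat shock genes, which respond to tissue handling, it was 87.4 to 121 FPKM at the Proliferation Stage, 92.4 to 197 FPKM at the Differentiation Stage, 96.3 to 136 FPKM at the Maturation Stage and 71.6 to 140.4 FPKM for the Uninjected libraries, and all 3 stages overlapped the Uninjected range. By gene, 5 of these 10 rose and 0 fell at the Differentiation Stage (Fosb, Junb, Egr1, Atf3 and Ier2), and of 9 tested at the Proliferation Stage 2 rose (Junb and Atf3) and 1 fell (Dusp1). Of all genes, 17% rose and 12.5% fell at the Differentiation Stage, and 20.1% rose and 9.05% fell at the Proliferation Stage. Their median log2 difference was 0.99 at the Differentiation Stage and 0.89 at the Proliferation Stage, beside 0.06 and 0.05 over all genes. The part of cell makeup or handling in these results was not tested, nor was cell makeup separated from the library scaling. Per 1000 FPKM of adult fiber markers, Ankrd1 had 0.315 to 2.83 FPKM at the Proliferation Stage, 0.314 to 0.948 at the Differentiation Stage, 0.0214 to 0.141 at the Maturation Stage and 0.00289 to 0.0368 for the Uninjected libraries. On this scale, given with no test, Klhl41 was 4.14 to 23.8 at the Proliferation Stage and 3.65 to 4.16 at the Differentiation Stage against 1.99 to 3.00 for the Uninjected libraries, so both stages lay wholly above them, unlike in FPKM. The divisor was itself lower at the Proliferation Stage (6636 to 73258 FPKM against 73577 to 121331 FPKM in the Uninjected group). Its median was also lower at the Differentiation Stage (62983 FPKM against 94124 FPKM in the Uninjected group). A lower divisor raises any gene on this scale. Undivided, Klhl41 averaged 267 FPKM at the Differentiation Stage and 245 FPKM in the Uninjected group. The share of all genes that separate on it was not computed. The means of Smyd1 (2.36 at the Proliferation Stage against 1.22 in the Uninjected group) and of Nrap (3.57 against 2.86 in the same groups) turned to the other side, with overlapping ranges. Xirp2 stayed lower in mean, at 1.29 at the Proliferation Stage and 0.907 at the Differentiation Stage against 1.69 in the Uninjected group, but its Proliferation range of 0.381 to 2.33 spanned the Uninjected range of 1.39 to 2.25.

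**Figure D4:**
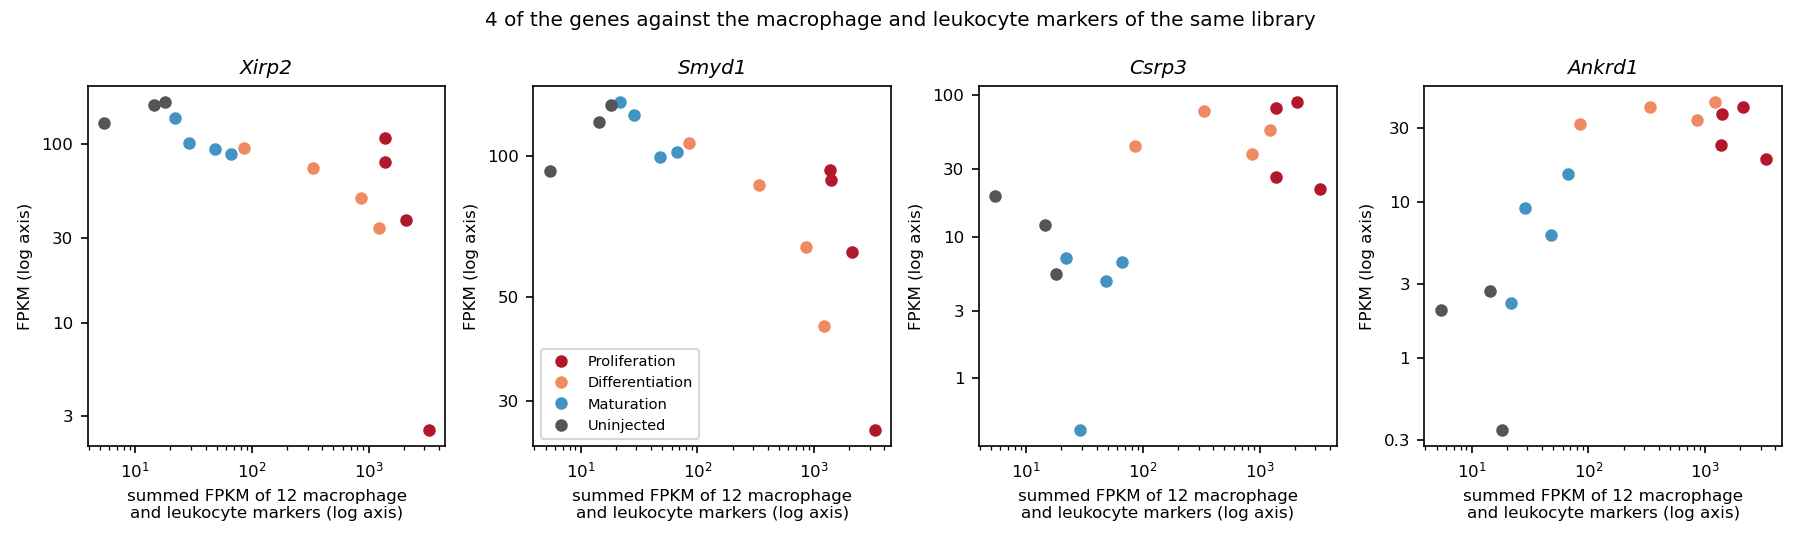
FPKM of Xirp2, Smyd1, Csrp3 and Ankrd1 (vertical axes, log scale) against the summed FPKM of 12 macrophage and leukocyte markers in the same library (horizontal axes, log scale), colored by group. Xirp2 and Smyd1 are lowest in Proliferation replicate 1, the library with the highest marker sum of 3313. Ankrd1 is at 18.8 FPKM or more in all 8 Proliferation and Differentiation libraries, and 18.8 FPKM is its value in Proliferation replicate 1.

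Adjacent groups of genes gave further context. Among 20 other chaperones and partners of myofibril assembly, 1 rose and 3 fell at the Proliferation Stage, 3 rose and 6 fell at the Differentiation Stage, and limma called 0 at the Maturation Stage. Of all genes, 20.1% rose and 9.05% fell at the Proliferation Stage, and 17% rose and 12.5% fell at the Differentiation Stage. The thin filament nucleator Lmod2 and the Z-disc crosslinker Actn2 were among those that rose at day 7 (log2 2.19 and 1.88, adjusted p = 0.0423 and 0.0230), and the titin cap Tcap and the ligase gene Trim54 were among those that fell (log2 -2.15 and -1.69, adjusted p = 0.00258 and 0.00720). Their median log2 difference was -0.33 at the Proliferation Stage and -0.40 at the Differentiation Stage, beside 0.05 and 0.06 over all genes. Among 8 genes of titin and its partners, 1 fell at the Proliferation Stage (Ttn itself, log2 -1.80, adjusted p = 0.0355) and 3 fell at the Differentiation Stage (Tcap, Capn3 and Ankrd23), with 0 rising at either stage and a median of -0.63 and -0.57, beside 9.05% and 12.5% of all genes that fell. Of 18 tested genes of the SRF, MRTF, YAP and TEAD axis, which is known to regulate Ankrd1, 3 rose and 0 fell at the Proliferation Stage (Tead2, Tead4 and Acta2) and 2 rose and 0 fell at the Differentiation Stage (Tead3 and Acta2, which is also a smooth muscle marker), beside 20.1% and 17% of all genes that rose. The median log2 difference of this list was 0.04 and 0.34 at the 2 stages. Tead4, a factor that binds MCAT motifs, had 8.06 ± 2.16 FPKM at the Proliferation Stage against 2.13 ± 0.52 FPKM in the Uninjected group (SD, n = 4 and 3, log2 1.68, adjusted p = 0.00299), and Tead1 did not pass (-0.65 ± 0.32, adjusted p = 0.149). Srf itself differed by -0.35 ± 0.27 and -0.62 ± 0.24 at days 4 and 7 and did not pass (adjusted p = 0.340 and 0.0820), and the YAP targets Ccn1 and Ccn2 did not pass at any stage (adjusted p of 0.0847 or more).

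Across the 15 libraries the genes fell into different patterns. As a description, Pearson's r of log2(FPKM + 0.5) was 0.94 for Xirp2 with Smyd1, 0.91 for Xirp1 with Flnc and 0.72 for Klhl40 with Klhl41. After removal of the group means these values were 0.93, 0.91 and 0.93, and without Proliferation replicate 1 they were 0.91, 0.84 and 0.83. Xirp2 with Nrap was 0.92, and 0.89 after removal of the group means, but 0.60 when Proliferation replicate 1 was also left out. The pairs named here are a selection from 45. All points share the scaling of their library, and Proliferation replicate 1 lies far from the rest. Ankrd1 with Smyd1 was -0.53 and, after removal of the group means, -0.03, and without Proliferation replicate 1 these were -0.68 and -0.38.

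Among 6224 genes compared, the closest patterns over the 15 libraries were those of Map3k20, Fbxo40 and Synm for Xirp2 (r = 0.98, 0.97 and 0.97) and of Enpp4, Fsd2 and Cd99l2 for Smyd1 (0.99, 0.98 and 0.97). Nearest to Xirp1 were Hspb1, Lmcd1 and Otud1 (0.86, 0.86 and 0.85), and nearest to Flnc were Hspb7, Fhl1 and Lmcd1 (0.88, 0.86 and 0.86), so that Lmcd1 stood in both lists. Ankrd1 was closest to the imprinted RNA H19 and to Ttc9 and Ppp2r3d (0.96, 0.96 and 0.95). Csrp3 was closest to the interferon-induced genes Irf7 and Ifit3 and to Dhrs7 (0.90, 0.90 and 0.88). Ankrd2 was closest to Smtnl1, Acadl and the type IIa myosin gene Myh2 (0.89, 0.87 and 0.84), Nrap to Ugp2, 3425401B19Rik and Gbe1 (0.97, 0.95 and 0.95), Klhl40 to Tspan3, Enho and Mt3 (0.95, 0.93 and 0.91) and Klhl41 to Rpl30-ps10, Fto and Pgap4 (0.80, 0.80 and 0.79).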

How the data were processed

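Polyadenylated RNA was sequenced as paired ends from 15 libraries, and the authors deposited FPKM values with the build label mm10. For the aligner, counter, annotation and library size basis: not given in the sources used here. Deposited fold change and p-value columns, made by the authors, were not used, and 0 columns of per-sample values were left unused. The study's methods state more mice per group than the files hold libraries.

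Gene positions and lengths came from GENCODE M21. Values under 50 fragments were whole within 0.01 for 90.4% to 95.0% of values, which gave fragments per library (about 1471340 to 7209330). Intervals and errors cover these libraries only.

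Each stage was compared with Uninjected by limma 3.58.1 (R 4.3.3, statmod 1.5.0; eBayes, trend and robust set) on log2(FPKM + 0.5). Genes entered with 0.5 FPKM or more in 3 or more of the 7 libraries. Stages were compared in 1 fit of 15 libraries. P-values were adjusted by Benjamini-Hochberg across the tested genes, and 0.05 was the threshold. An exact permutation test of mean FPKM stood beside it. Python 3.11.15, numpy 2.4.6, scipy 1.17.1 and pandas 2.3.3 were used for the rest. The fit was tested on simulated data.

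All 10 genes are named, together with the 3 genes most like each and known partners. Members, gene lists and tests were chosen with earlier results of these data known. Motifs were sought in RefSeq promoter windows (GRCm38.p6), which 9 of the 10 genes matched. Alternatives were the pseudocount, filter, scaling, spread estimate, replicate block, single fit, the unpaired test of the methods, leaving out each library and, chosen after seeing the data, FPKM rescaled to the recovered fragments in genes and voom on the recovered fragments.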

Additional observations from a re-analysis of the deposited data

Results flagged for a closer look

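Among the 30 groups of 4 libraries that were checked for a library far from the others, where chance marks about 1 in 20, there were 2. Ankrd2 stood at 114 FPKM in Differentiation replicate 3, far above the other 3 libraries of that stage (16.1 to 31.8 FPKM), and at 11.2 FPKM in Maturation replicate 1, far below the other 3 (54.2 to 62.4 FPKM).

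Csrp3 differed between stages. Relative to Uninjected it was higher at both early stages, and its negative value at the Maturation Stage did not pass (log2 -1.51, limma adjusted p = 0.426, and -0.80 without Maturation replicate 1). The log2 difference at the Maturation Stage was -3.71 from the Differentiation Stage (limma adjusted p = 0.00469) and -3.51 from the Proliferation Stage (adjusted p = 0.00140), lower in 4 of 4 Maturation libraries each time.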

How the results depend on the processing

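Over 1230 alternative values of the 10 genes' log2 differences in 6 comparisons, 0 called differences changed sign, 28 lost their call, 48 gained one and 82 uncalled values changed sign. Ankrd1 kept its calls under all alternatives but 1, the unpaired test on FPKM in the Proliferation Stage (adjusted p = 0.0648). The count of genes that rose in the Proliferation Stage (2) was 1 without a filter, 6 when rescaled to the same total (TPM), 4 with FPKM rescaled to the recovered fragments in genes, 4 with voom on the recovered fragments, 0 with the unpaired test on FPKM and 1 to 4 with a library left out. Of all genes tested there, 5132 of 16021 rose under TPM, 4370 of 13463 under recovered fragments and 2752 of 12737 under voom. The count of the 10 that fell in the Proliferation Stage (0) was 2 in 1 fit of all 15 libraries. In the Differentiation Stage the 5 that rose became 6 under TPM, recovered fragments and voom (Klhl41 was added), 1 with the unpaired test and 3 to 5 with a library left out, and the 1 that fell became 0 in 1 fit of all 15 libraries and 0 to 2 with a library left out. Under TPM, recovered fragments and voom, 4162 of 15382, 3869 of 13092 and 3904 of 11454 of all genes rose at that stage. Genes lower in the Maturation than in the Differentiation Stage (2) became 5 under TPM, 5 under TPM without mitochondrially encoded genes, 5 under recovered fragments and 5 under voom. Of all genes tested, 1710 of 17983, 1671 of 18423, 2006 of 14887 and 558 of 13269 were lower under these settings in turn. Relative to the Proliferation Stage the 2 lower genes became 6, 5, 5 and 5 under the same settings, and the 0 higher became 0 to 2 with a library left out. The lower genes among all tested were then 7103 of 17983, 6143 of 18423, 5954 of 14887 and 5531 of 13269. TPM moved the median gene by 0.90 in the Proliferation and 0.61 in the Differentiation Stage, against 0.05 and 0.06 as deposited, and split all genes of the Proliferation Stage into 5132 higher and 175 lower, against 1895 and 1840 under quantile normalization.

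With the replicate block, 3 genes rose (Xirp1, Csrp3 and Ankrd1) and 0 fell in the Differentiation Stage, and it changed no other count. Subject numbers name different animals in each group, and libraries of the same number did not deviate together (correlations -0.479 to 0.0765), so they share only a number. Limits of depth are strongest for Ankrd1 in Uninjected muscle (2 to 23 fragments) and Csrp3 at the Maturation Stage (2 to 66 fragments).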
